A study of Drosophila melanogaster with 3 samples.

Results

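The regions described here are peaks and background regions listed for a CG4617-eGFP fusion protein of Drosophila melanogaster. They are those on chromosome 4, on chromosome Y and in the pericentric ends of chromosome arms 2L, 3L, 3R and X. They were chosen by position alone, as every region of the pooled list in the dm6 genome build that lies on chromosome 4 or Y, on 2L from 22 Mb, on 3L from 23 Mb, on 3R up to 4.2 Mb or on X from 22.6 Mb. They number 481 of 20051 pooled regions. Chromosome 4 held 286 of them, and the pericentric ends held 195, with 63 on 2L, 80 on 3L, 25 on 3R and 27 on X. Chromosome Y held 0. They are set against the 15951 pooled regions on the euchromatic rest of 2L, 3L, 3R and X, called the rest below.

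The data come from chromatin immunoprecipitation followed by sequencing (ChIP-seq), in which DNA bound to a protein is pulled down with an antibody and sequenced. Whole embryos of mixed sex, collected 0 to 24 hours after laying, came from the transgenic strain CG4617-GFP, which stably expresses the fusion CG4617-eGFP, with the tag at the C terminus of CG4617, and the precipitation used an antibody to GFP. The 3 biological replicates form 1 group, and untagged embryos are not among the samples, so no comparison between genotypes or treatments was made. The lists describe a tagged protein in 1 line. In whole embryos, binding in fewer cells and weaker binding per cell cannot be told apart.

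Pericentric heterochromatin is the compact, repeat-rich chromatin beside the centromeres, marked by histone H3 lysine 9 methylation and the protein HP1a. The small chromosome 4 carries the same marks over most of its length, yet many of its genes are active, and in flies it is also coated by the protein Pof. Several pericentric genes, such as lt, need their heterochromatic surroundings for normal expression. The Y chromosome is almost wholly heterochromatic, and its best known genes act in the male germ line.

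The authors deposited 1 list of peaks and background regions per replicate, a pooled list, and a thresholded list that kept regions by the irreproducible discovery rate (IDR), a measure of how well regions rank alike between replicates. Each region has a signal, a value set by the authors whose scale is unstated, used here only within a list, and a summit, the base where the signal is highest. Replicates 1, 2 and 3 listed 30000, 17251 and 14368 regions. Depth in reads is unknown, and intervals given below cover counting error only. Replicate 3 stood apart in the pericentric ends. Its 280 regions there were 1.95% of its list, against 0.66% (198 regions) in replicate 1 and 1.00% (173 regions) in replicate 2. Several results that rest on it are given with and without it, or by replicate.

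The sequences below are the forward strand of dm6 within 100 bp of the summit, cut back to the stretch around or beside the summit that holds no annotated exon, and were read from the RefSeq copy of the genome. They are shown because they are among the strongest chromosome 4 regions, among the strongest of each pericentric end, or, for PlexA and the intergenic region nearest mRpS5, because they hold the replication element TATCGATA. Capitals mark matches on either strand to TATCGATA (the DNA replication-related element), GGTCACAC (known as the site of M1BP), the TATA-like TATAAA, the GAGA repeat GAGAGA, the E-box CACGTG, the E-box CAGCTG and the core CGATA (known as the site of the insulator protein BEAF-32). CGATA is also part of TATCGATA.
anne promoter, chr4:132039-132219: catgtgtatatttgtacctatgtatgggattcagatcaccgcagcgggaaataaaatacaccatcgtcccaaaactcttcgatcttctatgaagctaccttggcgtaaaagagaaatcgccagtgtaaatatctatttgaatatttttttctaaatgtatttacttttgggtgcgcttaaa
PlexB promoter, chr4:43779-43909: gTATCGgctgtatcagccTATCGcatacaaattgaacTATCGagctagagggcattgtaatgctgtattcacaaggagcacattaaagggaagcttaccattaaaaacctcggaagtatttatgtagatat
Arl4 promoter, chr4:179390-179491: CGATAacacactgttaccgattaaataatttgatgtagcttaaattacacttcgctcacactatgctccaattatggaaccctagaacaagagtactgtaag
PlexA promoter, chr4:1027116-1027316: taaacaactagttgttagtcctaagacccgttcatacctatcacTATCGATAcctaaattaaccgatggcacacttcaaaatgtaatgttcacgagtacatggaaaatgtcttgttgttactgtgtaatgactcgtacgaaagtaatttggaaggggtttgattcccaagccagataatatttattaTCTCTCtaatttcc
intergenic region nearest lgs, chr4:424709-424909: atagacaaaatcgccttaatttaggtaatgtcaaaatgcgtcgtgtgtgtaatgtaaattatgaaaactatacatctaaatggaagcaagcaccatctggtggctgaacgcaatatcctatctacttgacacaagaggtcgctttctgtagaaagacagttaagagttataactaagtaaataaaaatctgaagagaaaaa
cta promoter, chr2L:22981726-22981815: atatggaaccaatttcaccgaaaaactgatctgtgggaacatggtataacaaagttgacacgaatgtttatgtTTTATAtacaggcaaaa
MED21 promoter, chr3L:25115947-25116070: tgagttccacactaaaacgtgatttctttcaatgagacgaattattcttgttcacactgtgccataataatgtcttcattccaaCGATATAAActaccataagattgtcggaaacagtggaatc
CG41128 promoter, chr3R:3750288-3750362: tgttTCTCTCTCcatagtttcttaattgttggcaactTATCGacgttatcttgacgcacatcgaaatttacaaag
intergenic region nearest mRpS5, chr3L:24536075-24536275: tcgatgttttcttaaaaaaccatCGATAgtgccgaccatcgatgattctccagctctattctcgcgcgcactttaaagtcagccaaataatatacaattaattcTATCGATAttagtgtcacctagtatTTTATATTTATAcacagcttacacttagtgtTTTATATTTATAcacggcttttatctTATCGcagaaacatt
ATbp promoter, chrX:23105861-23106002: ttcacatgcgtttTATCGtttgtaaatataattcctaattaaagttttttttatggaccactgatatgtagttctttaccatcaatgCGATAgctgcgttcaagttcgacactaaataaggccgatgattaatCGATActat

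The PlexB window held 3 copies of CGATA and the ATbp window 3, while the anne window and the intergenic window nearest lgs held none of the 7 motifs. The cta and MED21 windows each held 1 TATAAA. Over the whole 100 bp on each side of the summit, CGATA was found at 28 of 53 thresholded promoter regions of chromosome 4 (52.8%, 95% Wilson interval 39.7 to 65.6%) and at 17 of 49 pericentric ones (34.7%, 22.9 to 48.7%), against 41.0% of 3480 in the rest and 27.6% of all 16432 pooled regions on these chromosomes. TATCGATA was found at 4 (7.55%) of those on chromosome 4 and 2 (4.08%) of those in the pericentric ends, against 9.37% in the rest and 3.33% of all regions. GGTCACAC was found at 3 (5.66%) on chromosome 4 and at 0 of 49 in the pericentric ends, which allows a share of up to 6.12% (3 counts of 49), against 10.9% in the rest and 3.39% of all regions.

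The E-box CAGCTG was at 2 (3.77%, 1.04 to 12.8%) of the thresholded promoter regions of chromosome 4 and 4 (8.16%, 3.22 to 19.2%) of the pericentric ones. It was at 15.3% in the rest and 1649 of all 16432 regions, and the pericentric interval contained the share of the rest. The AT-rich words had higher shares than the rest. TATAAA was at 32.1% (21.1 to 45.5%) on chromosome 4 and 36.7% (24.7 to 50.7%) in the pericentric ends, against 23.6% in the rest and 28.6% of all regions. The chromosome 4 interval contained the share of the rest, and both contained that of all regions. AATAT, which is not capitalised above, was at 73.6% (60.4 to 83.6%) on chromosome 4 and 85.7% (73.3 to 92.9%) in the pericentric ends. Both intervals lay above the 55.2% in the rest, where all regions had 60.3%. Base composition differed as well. The median GC content of thresholded regions was 33.1% on chromosome 4 and 33.2% in the pericentric ends, against 40.4% in the rest, and its part in the motif shares was not tested.

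The share of regions past the IDR threshold was lower on chromosome 4 than in the rest, and in the pericentric ends together it was close to that of the rest. The threshold is a value of the pooled signal in effect, since the thresholded list is exactly the 5558 strongest pooled regions, with a lowest signal of 128.8 against 128.7 for the strongest region outside it. The thresholded list held 113 of the 481 regions (23.5%, 19.9 to 27.5%), beside 27.7% of all pooled regions, which lies just above that interval. Chromosome 4 had 60 of 286 (21.0%, 16.7 to 26.1%) and the pericentric ends together 53 of 195 (27.2%, 21.4 to 33.8%), against 27.1% in the rest (26.4 to 27.8%). The chromosome 4 interval thus lay below that of the rest, and the pericentric interval contained it. Neighbouring regions can overlap, as 41 on chromosome 4 did, and the intervals do not take this into account. By arm, the shares were 30.2% in pericentric 2L against 26.8% in the rest of 2L, 31.2% in pericentric 3L against 25.6% in the rest of 3L, 24.0% in pericentric 3R against 29.4% in the rest of 3R, and 11.1% in pericentric X (3 of 27) against 26.3% in the rest of X. Every one of these 4 arm intervals was wide, from 11.5 to 43.4% on 3R, for example.

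**Figure D1:**
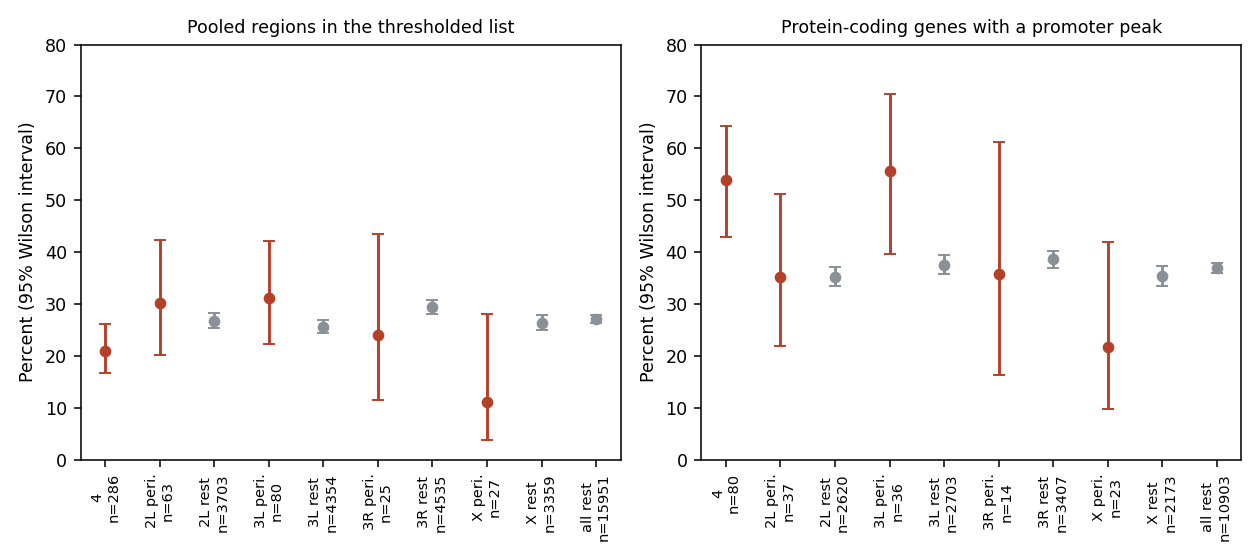
Share of pooled regions in the thresholded list (left) and of protein-coding genes with a thresholded promoter peak (right), in percent, for chromosome 4 and each pericentric end (red) beside the rest of the same chromosome (grey), with 95% Wilson intervals. Chromosome 4 lies at 21.0% on the left, below the whole rest at 27.1%, and at 53.8% on the right, above the whole rest at 36.9%.

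The share past the threshold differed between promoter regions and other regions. A promoter region is taken here as one whose summit is within 500 bp of the transcription start site (TSS) of a protein-coding gene. Of promoter regions, 53 of 105 were thresholded on chromosome 4 (50.5%, 41.1 to 59.9%) and 49 of 95 in the pericentric ends (51.6%, 41.7 to 61.4%), against 49.5% in the rest. Away from promoters, 7 of 181 were thresholded on chromosome 4 (3.87%, 1.89 to 7.77%) and 4 of 100 in the pericentric ends (4.00%, 1.57 to 9.84%), against 9.49% in the rest (8.90 to 10.1%). Promoter regions therefore passed at nearly the same rate in all 3 places, while the interval for the other regions of chromosome 4 lay below that of the rest.

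Thresholded regions were mostly promoter regions everywhere. The promoter share was 53 of 60 on chromosome 4 (88.3%) and 49 of 53 in the pericentric ends (92.5%), against 80.4% in the rest. Below the threshold it was 23.0% on chromosome 4 and 32.4% in the pericentric ends, against 30.5% in the rest. Taken over whole pooled lists, it was 36.7% on chromosome 4 (31.3 to 42.4%) and 48.7% in the pericentric ends (41.8 to 55.7%), against 44.0% in the rest. The sequence within 500 bp of a TSS makes up 8.66% of chromosome 4 and 1.14% of the pericentric ends, against 12.5% of the rest.

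**Figure D2:**
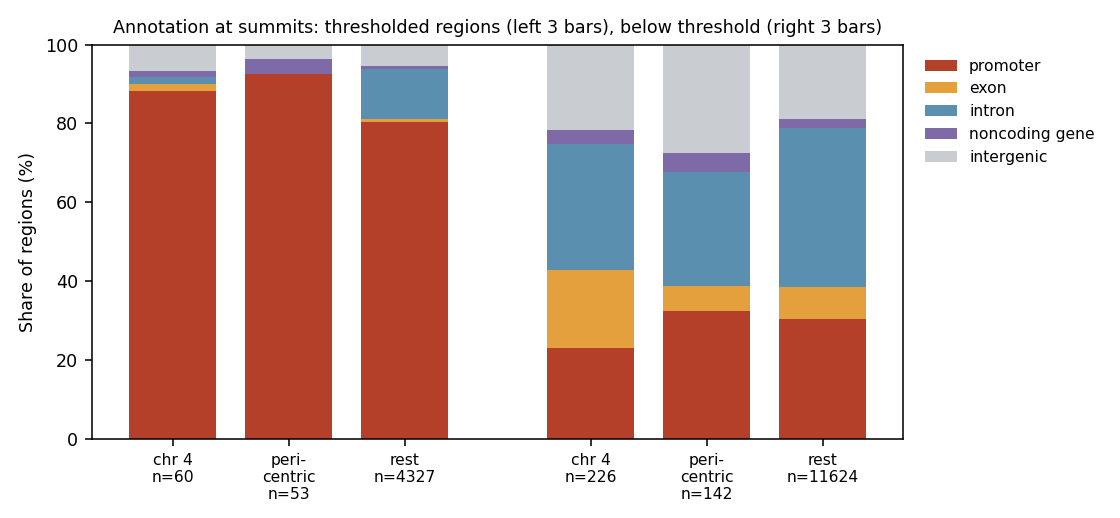
Stacked bars give the share of regions, in percent, with the summit at a promoter, in an exon, in an intron, in a noncoding gene or between genes, for chromosome 4, the pericentric ends and the rest. Promoters take 88.3%, 92.5% and 80.4% of the thresholded bars, and exons take 19.9% of the chromosome 4 bar below the threshold against 8.03% of the bar for the rest.

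Introns and exons divided the other regions differently. No thresholded pericentric region had its summit in an intron or exon, and chromosome 4 had 1 of each, while introns held 12.7% of thresholded regions in the rest. Below the threshold, exons held 45 of 226 chromosome 4 regions (19.9%) and 9 of 142 pericentric ones (6.34%), against 8.03% in the rest. Exons make up 30.7% of chromosome 4 and 2.72% of the pericentric sequence, against 27.7% of the rest.

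In the replicate lists, taken separately, chromosome 4 had a lower promoter share than the rest 3 times out of 3. It was 31.8%, 36.3% and 39.5% on chromosome 4 in replicates 1, 2 and 3, against 38.3%, 46.3% and 42.0% in the rest. The difference, chromosome 4 minus the rest, averaged -6.36 ± 3.80 percentage points (SD, n = 3; two-sided exact permutation p = 0.25, the smallest that 3 replicates can give, and 0.45 after Benjamini-Hochberg adjustment over 18 comparisons). The direction turned when only strong regions were kept. Among the 5558 strongest regions of each list, as many as the thresholded list holds, the difference was 8.00 points the other way (exact permutation p = 0.25).

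The pericentric promoter share did not hold one direction. It was 52.0%, 50.9% and 27.1% in the pericentric ends of replicates 1, 2 and 3, against 38.3%, 46.3% and 42.0% in the rest. The mean difference was 1.14 ± 14.58 points (SD, n = 3; exact permutation p = 1), and 9.13 points without replicate 3. Replicates 1 and 2 lay above the rest and replicate 3 below it. Among the strongest 5558 regions of each list the mean difference was 10.39 points (exact permutation p = 0.25).

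**Figure D3:**
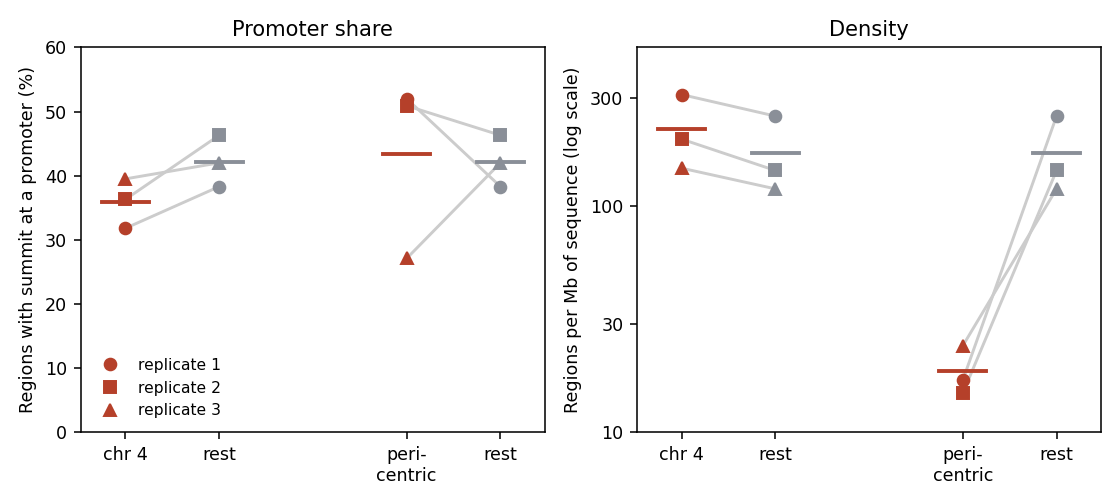
Promoter share in percent (left) and regions per Mb of sequence on a log scale (right) in each of the 3 replicate lists, with chromosome 4 and the pericentric ends in red and the rest in grey. Grey lines join values of 1 list and short bars are means; replicate 3 lies at 27.1% in the pericentric ends, apart from 52.0% and 50.9%.

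Replicate 3 listed many pericentric regions that no pooled region overlapped. Of its 280 regions there, 157 (56.1%) overlapped no pooled region, against 26.3% for replicate 1 and 24.9% for replicate 2. On the rest, 23.6%, 37.4% and 17.2% of regions in replicates 3, 1 and 2 overlapped none. The 157 had a promoter share of 5.10% and a median signal of 20.6, while the other 123 had a promoter share of 55.3% and a median signal of 30.8. Elsewhere too, regions outside the pooled list had low promoter shares, though most were higher than 5.10%. They were 17.3% and 4.65% in the pericentric ends of replicates 1 and 2. In the rest they were 16.8%, 14.7% and 10.5% in replicates 1, 2 and 3. The 157 also included the strongest pericentric region of replicate 3 (137.9, against 127.4 for the strongest of the 123). On pericentric 3R, replicate 3 listed 25 regions before 3.5 Mb, a stretch with few genes, against 3 in replicate 1 and 2 in replicate 2. The annotated transposable elements held the summits of 6.07% of replicate 3's pericentric regions, close to 6.06% and 6.36% in replicates 1 and 2. Whether a library effect or another cause lies behind the excess was not tested.

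Density set the heterochromatic places apart from each other. The pooled list held 214.9 regions per Mb on chromosome 4 and 16.8 per Mb in the pericentric ends, against 167.2 per Mb in the rest. Within the pericentric ends, it ranged from 41.6 per Mb on 2L through 28.7 on X and 16 on 3L to 5.99 on 3R. In the replicate lists chromosome 4 had 309.5, 196.8 and 146.5 regions per Mb, against 248.7, 143.1 and 118.7 in the rest, a log2 ratio of 0.36 ± 0.09 (SD, n = 3; exact permutation p = 0.25, adjusted 0.45). The pericentric ends had 17.0, 14.9 and 24.1 regions per Mb against the same values in the rest, a log2 ratio of -3.15 ± 0.79 (exact permutation p = 0.25, adjusted 0.45), or -3.57 without replicate 3. Chromosome 4 lay above and the pericentric ends below the rest in all 3 lists, but among the 5558 strongest regions of each list the chromosome 4 log2 ratio was -0.04.

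Genes were sparser in both places than in the rest. Protein-coding genes stood at 60.1 per Mb on chromosome 4 and 9.46 per Mb in the pericentric ends, against 114.3 per Mb in the rest. There were thus 3.58 pooled regions per gene on chromosome 4 and 1.77 in the pericentric ends, against 1.46 in the rest. Thresholded regions per gene numbered 0.75 on chromosome 4 and 0.482 in the pericentric ends, against 0.397 in the rest. Soft-masked repeats made up 28.1% of chromosome 4 and 40.8% of the pericentric ends, against 17.5% of the rest. The sources used here do not say what was done with reads that match several places.

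Regions were unevenly placed inside each segment. On pericentric 3R, 22 of 25 pooled regions lay beyond 3.5 Mb, and the 6 thresholded ones all lay between 3.5 and 4.0 Mb, a stretch with 5 genes, every one of which had a promoter peak. The longest empty stretch on 3R was 1544419 bp and on 3L 859435 bp. On chromosome 4 the longest was 40575 bp, and the median gap between neighbours was 1443 bp. The borders fell between weak regions. The first regions inside them, at 1082 bp on 2L, 2166 bp on 3L, 2744 bp on 3R and 31555 bp on X from the border, had signals of 46.8, 42.5, 46.1 and 51.2, and the first outside had 42.7, 47.8, 54.1 and 47.6, all below the threshold.

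Heterochromatic regions had a lower median signal than the rest in the pooled list. The median pooled signal was 56.2 on chromosome 4 and 62.8 in the pericentric ends, against 70.1 in the rest. By arm, it was 66.1 on pericentric 2L against 68.9 in the rest of 2L, and 68.3 on pericentric 3L against 66.9. On pericentric 3R it was 59.7 against 71.6, and on pericentric X 51.7 against 74.0. Among thresholded regions, which are by construction those above the same signal, the medians were 227.7 and 214.4, against 217.6 in the rest, and by arm they ran from 185.5 on pericentric X to 264.7 on pericentric 3R. The upper end was lower, with a highest signal of 445.8 on chromosome 4 and 387.3 in the pericentric ends, against 2038.1 in the rest. Of the 500 highest pooled signals, 1 (0.2%) belonged to the heterochromatic regions, which make up 481 of all 20051 pooled regions. In the replicate lists, the log2 ratio of the median signal was -0.18 ± 0.02 for chromosome 4 (values -0.19, -0.16 and -0.18; exact permutation p = 0.25, adjusted 0.45) and -0.03 ± 0.23 for the pericentric ends (values 0.23, -0.11 and -0.22; exact permutation p = 1). The arms differed. Pericentric 3R had -0.24 ± 0.04 and pericentric X -0.25 ± 0.05 against their own arms, with all 3 replicates below 0 on each (exact permutation p = 0.25, adjusted 0.45), while 2L had 0.05 ± 0.24 and 3L 0.10 ± 0.36 (exact permutation p = 1 and 0.75). In replicates 1, 2 and 3 the values were 0.31, -0.03 and -0.15 on 2L and 0.5, 0.02 and -0.21 on 3L. With the 5558 strongest regions of each list the chromosome 4 value was 0.07.

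The strongest chromosome 4 region lay at the promoter of anne, with its summit 81 bp from the TSS at chr4:132023-132264 and a pooled signal of 445.8. Its signal was 163.4, 152.0 and 126.1 in replicates 1, 2 and 3. The lgs promoter, whose product Legless is a cofactor of Wingless signalling, followed with 410.6 pooled and 180.2, 153.8 and 73.2 in the replicates. Crk, an adaptor protein of receptor signalling, had 378.6 pooled and 156.1, 148.5 and 78.6 in the replicates. The 3 replicate values of a region are on the scales of their own lists, so their spread is not a measure of replicate error.

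PlexB and PlexA, the plexin receptors for semaphorins that guide axons, both had thresholded promoter regions. PlexB had 130.7, 144.1 and 119.9 in the 3 replicates and 378.5 pooled, and PlexA had 89.8, 103.8 and 122.1 and 319.5 pooled. Arl4, a small GTPase of the ADP-ribosylation factor family, had 127.4, 179.4 and 77.5 and 368.9 pooled, with the summit 2 bp from its TSS. The region shared by Dyrk3, a protein kinase, and Cadps, which acts in dense-core vesicle release, had 140.3, 115.2 and 63.2 and 319.4 pooled.

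Of the 10 strongest on chromosome 4, 8 were promoter regions. The other 2 were an intergenic region 19102 bp from the nearest TSS, that of lgs, at chr4:424715-424930 (331.7 pooled; 104.3, 134.0 and 97.1 in the replicates), and a region in an exon of Cals, which encodes calsyntenin, at chr4:1113254-1113440 (326.6 pooled; 88.3, 120.5 and 121.0). Both were found in all 3 replicate lists. The 11 thresholded regions outside promoters also included, on 2L, a pair in a long noncoding RNA gene near CG12567 with signals of 230.5 and 193.4. On chromosome 4 they included an intergenic region 3931 bp from the nearest TSS, of zfh2 (269.4), and one 764 bp from the nearest TSS, of ey (193.6).

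All 10 of the strongest pericentric regions were promoter regions, on 2L, 3L and 3R. Spf45, which encodes a splicing factor, had the highest with 387.3 pooled and 120.0, 191.9 and 81.1 in the replicates. MED21, a Mediator subunit, had 374.0 pooled and 131.0, 122.9 and 115.0. On 3R, Tim17b, a component of mitochondrial protein import, had 360.5 pooled and 106.6, 157.3 and 83.1. The G protein subunit gene cta, which acts in gastrulation, had 363.3 pooled and 100.9, 149.6 and 123.4. The others were Spf30 (348.7), Nubpl (335.6), Slmap (331.5), CG40228 (330.4), CG41128 (314.5) and alpha-Cat (314.2), the last encoding a protein of adherens junctions.

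The pericentric X was weaker than the other ends. Its strongest region, shared by the promoters of Rab21, a small GTPase of endosomes, and Coa7, had 199.4 pooled and 98.8, 41.7 and 67.1 in the replicates. The ATbp promoter region had 185.5 pooled and 39.8, 75.2 and 57.2. CG17163 (153.7) completed the 3 thresholded ones.

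**Figure D4:**
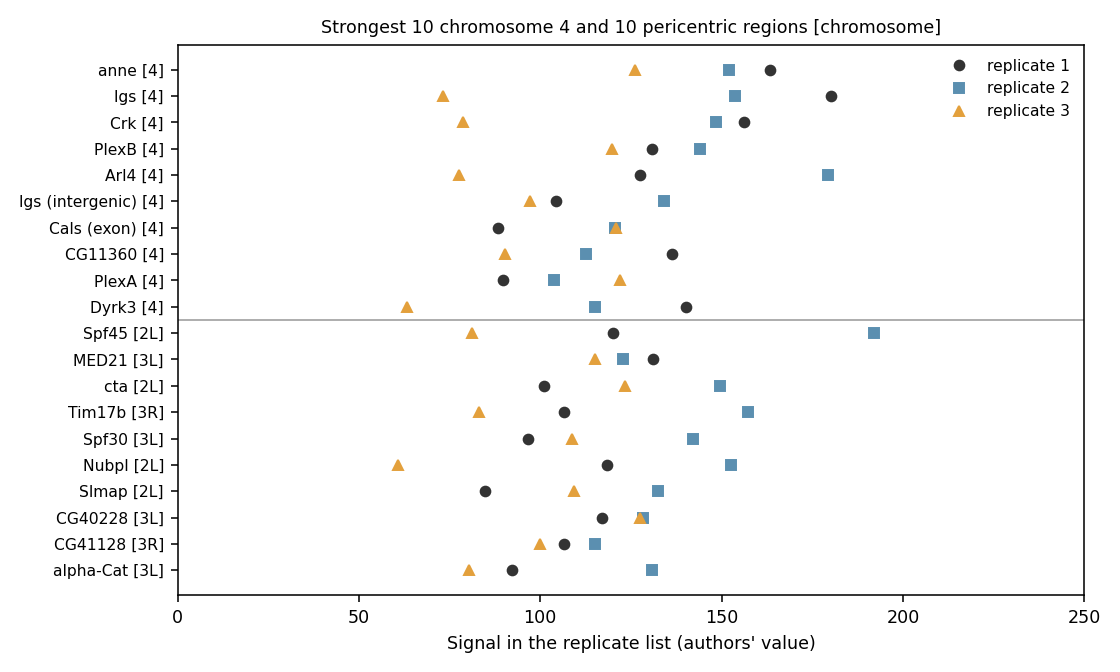
Signal of the 10 strongest chromosome 4 regions (above the line) and the 10 strongest pericentric regions (below it) in each of the 3 replicate lists, on the authors' scale. Values are to be read within a list: the highest shown is lgs in replicate 1 (180.2), Spf45 in replicate 2 (191.9) and CG40228 in replicate 3 (127.4).

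The members next to the threshold are given here without a test, since the pooled signal sets their side of it. The last inside were unc-13 on chromosome 4 (130.0), RpL21 on 2L (132.6), eIF4B on 3L (130.5), Parp1 on 3R (130.3) and CG17163 on X (153.7). The first outside were promoter regions of Arf4 on chromosome 4 (128.2), CG17493 on 2L (123.3), Alg-2 on 3R (113.9) and Coa7 on X (124.9). On 3L it was a region in a long noncoding RNA gene, 1463 bp from the nearest TSS, that of ND-AGGG (128.7). Each of Arf4 (232.0), Alg-2 (293.9), ND-AGGG (210.8) and Coa7 (199.4, shared with Rab21) also had a thresholded region at its promoter. The first outside at Arf4, Alg-2 and Coa7 overlapped that thresholded region of the same gene.

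Every one of the 113 thresholded regions was found in at least 2 of the 3 replicate lists. All 53 pericentric ones and 59 of 60 on chromosome 4 overlapped a region in all 3, against 94.6% in the rest, and the exception was a region at the promoter of Hcf, chr4:359775-359998, which overlapped none in replicate 1. A further thresholded region at that promoter, chr4:360125-360261, did overlap a region of replicate 1. Over all pooled regions, 38.1% on chromosome 4 and 49.7% in the pericentric ends overlapped a region in all 3 lists, against 48.6% in the rest. The thresholded and pooled lists were made from these same replicates, so this overlap is a description of them and no separate check.

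Transposable elements were touched by 83 of the 481 regions, 57 on chromosome 4 (19.9%) and 26 in the pericentric ends (13.3%), against 1.21% in the rest. Nearly all were below the threshold. The 1 thresholded exception was the promoter region of Gyf on chromosome 4 (210.9), which overlaps an INE-1 element. INE-1, a short element abundant on chromosome 4, was touched by 50 regions, 37 of them on chromosome 4, and the element 1360 by 12, of which 8 were on chromosome 4. Summits inside an element made up 10.8% of regions on chromosome 4 and 4.10% in the pericentric ends, against 0.326% in the rest, while annotated elements cover 25.1%, 15% and 4.08% of those sequences. In each place the share of summits in elements was thus below the elements' share of the sequence.

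Among genes, the share with a promoter peak was higher on chromosome 4 than in the rest. A thresholded summit lay within 500 bp of a TSS for 43 of 80 protein-coding genes of chromosome 4 (53.8%, 42.9 to 64.3%) and for 43 of 110 in the pericentric ends (39.1%, 30.5 to 48.4%), against 36.9% of 10903 genes in the rest (36.0 to 37.8%) and 37.1% of all 13968 genes. The chromosome 4 interval did not overlap that of the rest. By arm the pericentric shares were 20 of 36 genes on 3L (55.6%), 13 of 37 on 2L (35.1%), 5 of 14 on 3R (35.7%) and 5 of 23 on X (21.7%). A further 22 genes of chromosome 4 and 18 pericentric genes had only a pooled promoter region below the threshold, and 15 and 49 had none.

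Of 15 listed housekeeping genes of chromosome 4, 13 had a thresholded promoter peak (86.7%, beside 53.8% of all genes of chromosome 4), with a median signal of 257.7. They included gw (304.7), whose product acts in microRNA silencing, Zip102B (293.9), a zinc transporter, ATPsynbeta (281.8), a subunit of ATP synthase, and Rad23 (264.4), which acts in DNA repair and protein turnover. RpS3A (218.3), a ribosomal protein, and eIF4G1 (227.1), a translation initiation factor, were among them. Tdg, a DNA glycosylase, and Pur-alpha had a promoter region below the threshold (49.9, shared by both). In the lists that follow, the median signal of genes with a thresholded promoter peak was 349.0 for transcription factors and signalling. It was 149.2 for neuronal and muscle genes and 257.0 for pericentric genes.

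Of 19 listed transcription factors and signalling genes of chromosome 4, 6 had a thresholded promoter peak (31.6%, beside 53.8% of all genes of chromosome 4 and 37.1% of all genes), 9 a region below the threshold and 4 none. The 6 were lgs, Crk, PlexA and PlexB, described above, Ephrin (266.8), a ligand of Eph receptors whose region is shared with ND-49, and Sox102F (235.2), a transcription factor. Of the Pax6 genes of eye development, ey had 111.9 and toy had 42.8, both below the threshold, and pan, the fly TCF factor of Wingless signalling, had 122.7. The Hedgehog pathway factor ci, zfh2, sv and dati had no promoter region. The lists of chromosome 4 genes were chosen with earlier results of these data known, and they do not hold every gene of each kind. Eph and pho, with a thresholded promoter peak, and NfI, without, are on none of them. The shares thus depend on the choice of genes, and the difference between the lists was not tested.

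Of 8 listed neuronal and muscle genes of chromosome 4, 4 had a thresholded promoter peak, where 53.8% of all genes of that chromosome did. They were Cadps (319.4, the region shared with Dyrk3), CaMKI (157.0), a calcium-dependent kinase, Ank (141.4), the membrane-skeleton adaptor ankyrin, and unc-13 (130.0), which acts in synaptic vesicle priming. mGluR, a glutamate receptor (100.6), and Syt7 (49.7) were below the threshold. bt, which encodes the muscle protein projectin, and Gat, a GABA transporter, had none.

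Of 22 pericentric genes listed that lie in the segments, 10 had a thresholded promoter peak (45.5%, near the 39.1% of all pericentric genes and 37.1% of all genes), 6 a region below the threshold and 6 none. Besides cta and alpha-Cat, the 10 were Alg-2 (293.9), lt (260.3), a vesicle-tethering protein, Dbp80 (258.9), a DEAD-box protein, vtd (255.2), a cohesin subunit, RpL5 (238.7) and RpL15 (205.0), both ribosomal proteins, Set1 (162.4), a histone H3 lysine 4 methyltransferase, and Parp1 (130.3), the poly-ADP-ribose polymerase. Those below were su(f) (124.7), Snap25 (69.7), Myo81F (54.8), stnA and stnB (shared regions of 49.3 and 44.4) and fog (45.4). AGO3, an Argonaute of the piRNA pathway, nvd and spok, which act in ecdysone synthesis, Gfat1, Marf1 and FASN3 had none. A 23rd gene, nrm, starts outside the segments.

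Chromosome Y had no region in the pooled list, the thresholded list or any replicate list. None of its 23 protein-coding genes had a promoter region, and that held for all 12 fertility genes and relatives found in the annotation, among them kl-2, kl-3 and kl-5, which encode dynein chains of the sperm tail. Repeats make up 53.3% of its sequence. The embryos were of mixed sex, so the Y was present in part of the sample.

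**Figure D5:**
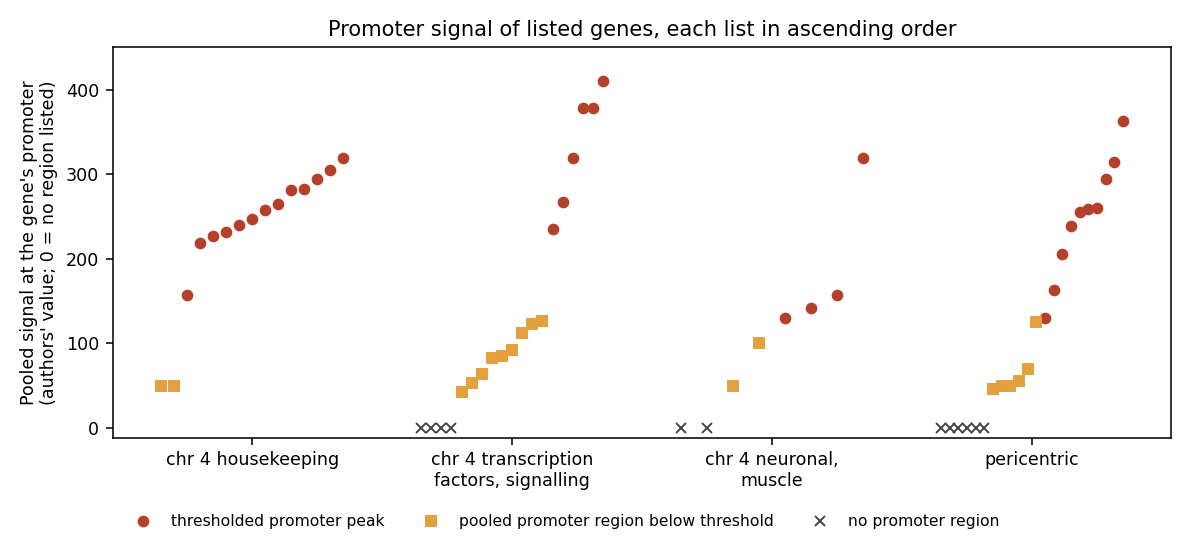
Pooled signal at the promoter, on the authors' scale, for each gene of 4 lists, with 0 where no region is listed; red points are thresholded, yellow squares are below the threshold and crosses have no region. Of chromosome 4 housekeeping genes 13 of 15 are red, and of its transcription factors and signalling genes 6 of 19 are.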

How the data were processed

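Region lists were analysed for 3 ChIP-seq libraries of 1 group. Per the deposited listing text, each replicate list was made from that library and 1 control alignment, the pooled list from all 3 libraries, and the thresholded list by IDR. Aligner, caller, IDR threshold and the handling of multiply matching reads: not given in the sources used here. Region signals were deposited by the authors on an unstated scale, and the summit offset (a distance in bp, other unit) was also deposited by the authors. Lists exist for dm6 and dm3, and coordinates are dm6, counted from 1. Reads per library are not in the files analysed, so depth is unknown.

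Genes and TSSs came from Ensembl release 115 (13968 protein-coding genes, 19275 TSS positions), with transposable elements from the same annotation, and sequence and soft-masking from RefSeq. A region counted as thresholded when its interval and signal matched an entry of the thresholded list. Regions in 2 lists were shared when they overlapped by 1 bp. Segment minus rest was taken within each replicate list and tested by all 8 sign changes of the 3 differences (two-sided exact permutation test). p-values measure only the spread between these samples, and were adjusted over 18 comparisons by Benjamini-Hochberg. Shares have 95% Wilson intervals. The calculation of TSS distance was checked on simulated positions, and the assignment to segments on set coordinates. Python 3.11.15, numpy 2.4.6, pandas 2.3.3 and scipy 1.17.1 were used.

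The members and lists were chosen with earlier results of these data known. Genes named are those at the 10 strongest regions of chromosome 4 and of the pericentric ends, the 2 strongest of each end, the regions next to the threshold, and the listed genes, of which 1 on the Y, kl-1, had no match. Regions outside promoters, Hcf in the replicate comparison and Gyf were picked with their values in view. Other settings tried were promoter windows of 250 and 1000 bp, region middles, 1 TSS per gene, the 5558 strongest regions per list, mean signal, borders moved by 0.5 Mb, the stronger 2779 thresholded regions, dm3 lists, and leaving out each replicate.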

Additional observations from a re-analysis of the deposited data

Results flagged for a closer look

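The lists in the older build dm3 hold regions on heterochromatic scaffolds with names that dm6 does not use. On 2LHet, 3LHet, 3RHet and XHet together, 64 pooled regions were listed, with a median signal of 81.4, and 20 of them (31.2%) were in the dm3 thresholded list. They are given because the dm3 lists lie outside the comparisons above. Much of the sequence of these scaffolds was placed in the arm ends of dm6. The regions were not matched between builds and are not counted as additional to the pericentric regions described above. By scaffold they numbered 7, 31, 17 and 9.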

How the results depend on the processing

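Of 59 alternative values, 10 changed sign and 6 moved in size. The other 43 kept their sign, though not always their size: the pericentric promoter difference ran from 0.13 to 10.39 points among them. Shares of regions or genes are never negative and could not change sign. The 10 changes of sign are all among the differences and log2 ratios, so the 43 are no measure of stability. On chromosome 4, keeping the 5558 strongest regions per list turned the promoter difference to 8.00 points, the signal log2 ratio to 0.07 and the density log2 ratio to -0.04. In the pericentric ends it turned the signal ratio to 0.05, a 1000 bp window turned the promoter difference to -0.57 points, and borders moved towards the centromere turned the signal ratio to 0.18. Leaving out 1 replicate at a time gave promoter differences of -8.29 to -4.50 points on chromosome 4 and -5.15 to 9.13 in the pericentric ends, signal ratios of -0.18 to -0.17 and -0.16 to 0.06, and density ratios of 0.31 to 0.39 and -3.57 to -2.78. The sign of both pericentric differences, over all 4 ends together, thus depended on the replicate left out. Genes with a promoter peak ranged from 51.2 to 52.5% on chromosome 4 and from 38.2 to 39.1% in the pericentric ends, with summits kept where the remaining replicates held them.

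Keeping the stronger 2779 thresholded regions, out of 20051 pooled regions in all, removes regions by construction. It gave thresholded shares of 11.2% on chromosome 4 and 13.3% in the pericentric ends, and promoter peaks at 40.0% and 21.8% of genes. In the dm3 lists the thresholded share of chromosome 4 was 22.4% (57 of 255). The pericentric share was 32.7% with borders moved 0.5 Mb towards the centromere and 27.5% with borders moved towards euchromatin. Asking that overlaps cover at least 50% of a region gave 25.9% on chromosome 4 and 40.5% in the pericentric ends found in all 3 lists, against 38.1% and 49.7% with 1 bp. For these shares, and for genes with 1 replicate left out, no value of the rest is given. They therefore do not repeat the comparison with the rest. With 3 replicates the exact sign-change test cannot go below 0.25, and unknown depth and unknown handling of repeated sequence limit what an empty stretch shows.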

Other observations

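Several long genes of chromosome 4 carried regions along their length. Asator, a kinase gene of 19.6 kb, held 11 pooled regions, of which 3 were thresholded. Unc-13, of 44.5 kb, held 10, with 1 thresholded, and Cadps, of 40.9 kb, held 8, with 1 thresholded. CG42748, of 35.0 kb on pericentric 2L, held 9, and none was thresholded. Chromosome 4 as a whole held 214.9 pooled and 45.1 thresholded regions per Mb, and pericentric 2L held 41.6 and 12.6. A long gene of chromosome 4 thus holds several pooled regions at that density alone. These 4 genes were chosen after their values were seen, and neighbouring regions can overlap. Of the 286 chromosome 4 regions, 41 overlap the region before them, as do 10 of the 63 on pericentric 2L.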
